A study of Homo sapiens with 3 samples.

Results

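The genes described here are 48 members of the interferon response, chosen by symbol from 57773 Ensembl gene IDs in a table of RNA sequencing read counts, and all 48 had a row. They take in the cytosolic RNA sensors and their adaptor, STAT2 and the IRF transcription factors, and the interferon-induced effectors. The RNA came from NB4, an established line of human promyelocytic leukaemia cells in which the PML-RARA fusion protein is made. In 2 libraries the cells carried a short hairpin RNA (shRNA) against ARID1B, a subunit of the BAF chromatin remodelling complex, hairpin 2 in one library and hairpin 3 in the other. In the remaining library they carried a control shRNA with no target. All cells thus carried an shRNA and were kept in RPMI with fetal bovine serum, and the study's stated aim was to see what silencing ARID1B does in this line. Every group comes from a single cell line. Neither hairpin nor the control had a second library, and no cells without a hairpin were among the samples, so an effect common to all 3 hairpins cannot be seen.

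Cells detect double-stranded RNA in the cytosol through the helicases RIG-I (DDX58) and MDA5 (IFIH1), which signal through MAVS to IRF3 and IRF7 and switch on interferon genes. Secreted interferon binds its receptors, and the kinases JAK1 and TYK2 then activate STAT2. With IRF9 it takes part in a complex that binds the interferon-stimulated response element in the promoters of antiviral genes. Short hairpin RNAs are themselves double-stranded and are known to set off this response in some settings, so each hairpin was set against the control separately. In promyelocytic leukaemia cells, many of these genes are also known to be induced by retinoic acid.

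The libraries held 59997475 to 62954803 counts. ARID1B itself had 2209 counts under hairpin 2 and 2234 under hairpin 3, against 5268 in the control, which is 43.3% and 42.2% of the control level. Both hairpins thus lowered the target to about the same extent. The promyelocyte marker MPO had 836096 and 741714 counts with the ARID1B hairpins and 682719 in the control, while ELANE, another promyelocyte gene, had at most 10 counts in any library. Of the 6 promyelocyte markers, 2 passed the test, in opposite directions. PRTN3 rose, with 14914 and 13672 counts, against 3363 in the control (edgeR adjusted p = 7.49e-07), and CTSG fell, with 1672 and 2183, against 6837 (edgeR adjusted p = 1.24e-06). Of 5 monocyte and macrophage markers, 2 (FCN1 and CD68) rose, while CSF1R had 396 and 290 counts with the ARID1B hairpins, against 468 in the control, and did not pass (edgeR adjusted p = 0.295). The 5 summed to 71.3 CPM (counts scaled to library size with TMM factors) under hairpin 2 and 50.6 CPM under hairpin 3, against 31.7 CPM in the control. CD14 had 16 counts or fewer, CD163 had 14 and 4 counts with the ARID1B hairpins and 0 in the control, and 81.7% of the exon length of CD68 lies within another annotated gene. Of 3 lymphoid markers tested, 2 (CD3D and NKG7) rose, and MS4A1 had 0 counts. The part of these marker changes in the results was not tested. In RNA from a whole culture, a change in the share of cells of a type and a change in RNA per cell cannot be told apart.

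Transcripts of the interferons themselves were at or near 0. Of 21 type I, II and III interferon genes, 15 had 0 counts in all 3 libraries, among them IFNB1 and IFNG, and no other had more than 6 counts in any library. A count of 0 allows up to 0.0499 CPM under hairpin 2, 0.0481 CPM under hairpin 3 and 0.0483 CPM in the control. The gene with the most, IFNA1, had 5 and 6 counts with the ARID1B hairpins and 3 in the control.

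The interferon response genes did not move as a block. Of the 48 members, 34 had a mean of at least 1 CPM over the libraries. Among those 34, the median log2 ratio to control was 0.08 under hairpin 2 and 0.11 under hairpin 3, against -0.01 and 0.00 over all 14977 genes at that level. Under hairpin 2, 4 members (IRF5, IFI6, IFI16 and IFI30) were at least 2-fold higher than in the control, where 3.69% of all such genes were, and 1 (XAF1) was at least 2-fold lower, where 1.68% were. Among genes at 1 to 10 CPM, where most of these members lie, 6.44% were 2-fold higher and 3.89% 2-fold lower. Under hairpin 3, 3 members (IRF5, IFI6 and IFI30) were at least 2-fold higher, where 2.26% of genes were, and 1 (TRIM22) at least 2-fold lower, where 1.16% were, with 3.91% and 2.83% among genes at 1 to 10 CPM. At 1.5-fold, 7 of the 34 were higher under hairpin 2, against 8.41% of genes, and 5 under hairpin 3, against 5.55%. In the other direction, 8 of the 34 were lower under hairpin 2 (XAF1, IFIT1, IFIT2, IFIT3, DDX58, GBP2, TRIM22 and HERC5), against 6.49% of genes. Under hairpin 3, 2 of the 34 were 1.5-fold lower (TRIM22 and IFIH1), against 4.62% of genes. The comparisons share the control library, and with 1 library a side they carry no test.

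Taking the ARID1B hairpins together against the control, 43 members could be tested, and 7 rose and 3 fell (edgeR quasi-likelihood test, Benjamini-Hochberg adjusted p under 0.05). Over the 20382 genes tested, 5.49% rose and 3.21% fell, 8.7% in all. The 7 were IRF5, IFI6, IFI16, IFI30, BST2, CMPK2 and IFITM1, and the 3 were OAS3, TRIM22 and DDX58. The test has 1 residual degree of freedom and takes its spread from the difference between the hairpins, moderated over all genes. Genes on which the hairpins differ widely can thus hardly pass. When every gene with a count was kept, edgeR called 0 genes, while 3218 had an unadjusted p under 0.05, 15 of them members. IRF5, IFI6, IFI16 and BST2 kept their call under every other setting tried.

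**Figure D1:**
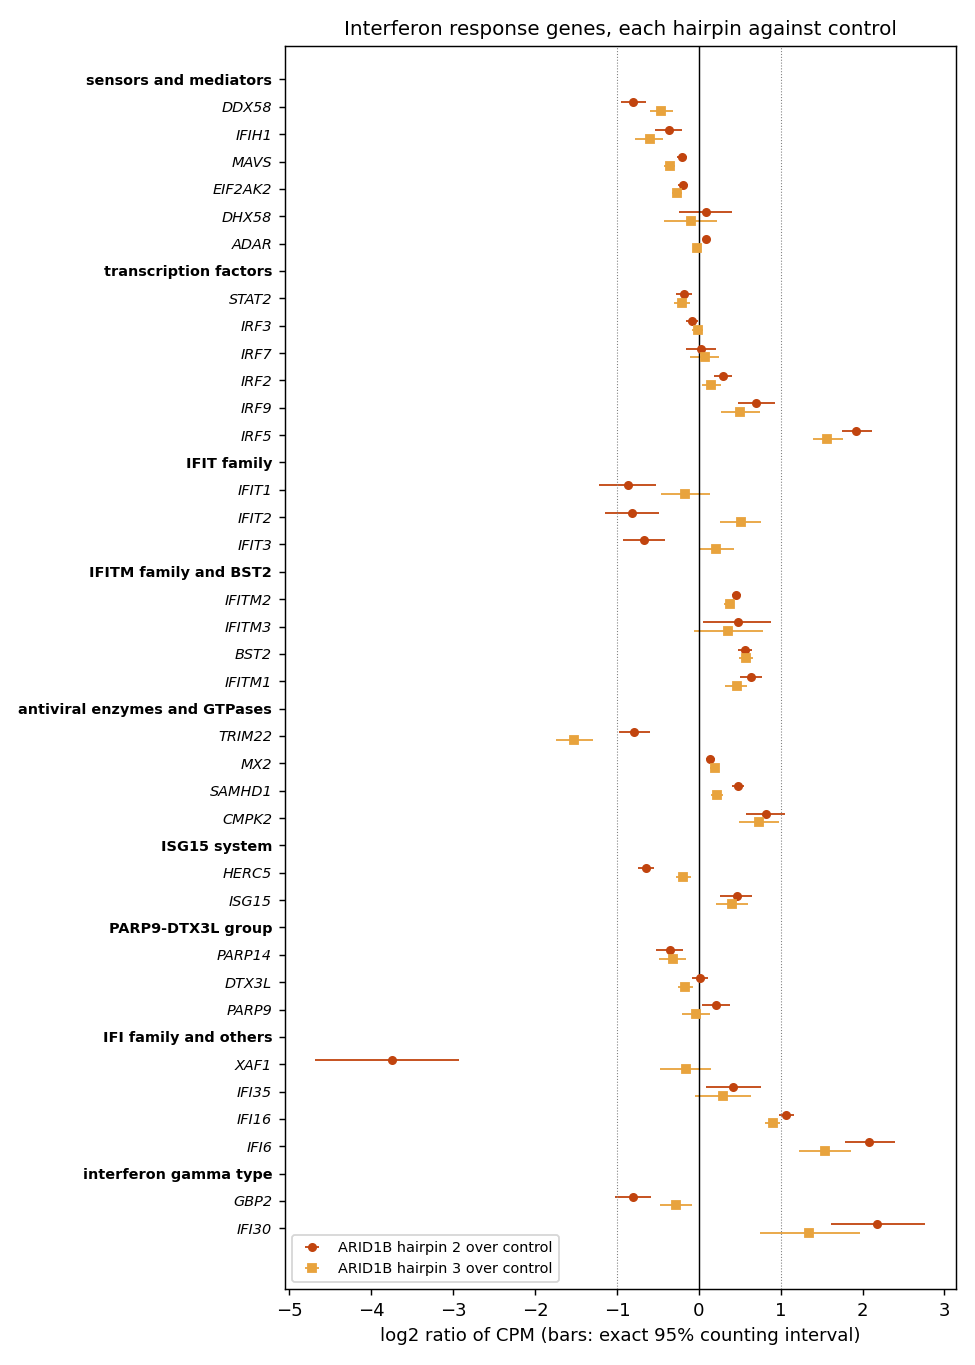
Log2 ratio of CPM to the control library (x axis, no count added) for the 34 members with a mean of at least 1 CPM, grouped by role, under hairpin 2 (circles) and hairpin 3 (squares); bars are exact 95% counting intervals and dotted lines mark 2-fold. XAF1 and the IFIT genes lie further to the left under hairpin 2, while IRF5, IFI6, IFI16 and IFI30 lie to the right under both hairpins.

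Of the 6 sensors and mediators of the RNA response, 4 lay below the control under hairpin 2 and all 6 under hairpin 3. Of all 14977 genes with a mean of at least 1 CPM, 7752 and 7478 lay below the control. Under hairpin 3 the counting intervals of ADAR (0.968 to 1.01 times the control) and DHX58 (0.745 to 1.17) included equality. Under hairpin 2 these 2 genes lay slightly above the control, each at 1.06 times its level. DDX58 (ENSG00000107201), which encodes RIG-I, had 536 counts under hairpin 2 and 706 under hairpin 3, against 964 in the control, a level 1.74-fold lower under hairpin 2 (exact 95% counting interval 1.57 to 1.94) and 1.37-fold lower under hairpin 3 (1.24 to 1.51). It fell by 0.62 on the log2 scale with a standard error of 0.176 (edgeR adjusted p = 0.0387). The alternatives gave adjusted p-values between 0.022 and 0.47. The call was lost in DESeq2 (adjusted p = 0.18), with a mean of at least 1 CPM (0.0935 in edgeR) and with robust empirical Bayes (0.0503). IFIH1, which encodes MDA5, had 533 and 469 counts with the ARID1B hairpins and 709 in the control, below the control under both but not past the threshold (log2 -0.48 ± 0.179 SE, edgeR adjusted p = 0.122). Their shared adaptor MAVS had 4062 and 3796 counts, against 4842 in the control. EIF2AK2, the kinase PKR that halts translation on binding double-stranded RNA, had 4145 and 4106 counts, against 4902. These gave log2 changes of -0.28 ± 0.130 and -0.23 ± 0.127 (SE) in edgeR and did not pass. ADAR, the enzyme that edits double-stranded RNA, had 17499 and 16867 counts, against 16996, and DHX58, a related helicase, had 167 and 153, against 163. None of the 6 sensors and mediators was thus above the control by more than 0.09 on the log2 scale under either hairpin.

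Among the transcription factors, 1 of 6 rose. IRF5 (ENSG00000128604), which acts downstream of Toll-like receptors in myeloid cells, had 1171 counts under hairpin 2 and 949 under hairpin 3, against 318 in the control. Its level was 3.8 times the control under hairpin 2 (counting interval 3.36 to 4.32) and 2.97 times under hairpin 3 (2.62 to 3.39), with a pooled log2 change of 1.76 ± 0.198 (SE, edgeR adjusted p = 3.24e-05). Of the factors that act closest to the interferon signal, none passed. STAT2 had 1622 and 1657 counts with the ARID1B hairpins, against 1897 in the control (log2 -0.19 ± 0.137 SE, edgeR adjusted p = 0.488). IRF3, the factor that starts interferon transcription, had 3198 and 3483, against 3501 (-0.05 ± 0.129 SE, edgeR adjusted p = 0.887). IRF7, which is itself interferon-induced, had 491 and 524 counts, against 498, so all 3 libraries were within 8.02 to 8.41 CPM. IRF9, the DNA-binding partner of STAT2, had 406 and 369 counts, against 258 in the control, which did not pass (log2 0.61 ± 0.214 SE, edgeR adjusted p = 0.0982). Annotation places 48.4% of the exon length of IRF9 within another gene with more counts, so its count is uncertain. IRF2, which competes with other IRFs at their sites, was 1.23 and 1.11 times the control.

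**Figure D2:**
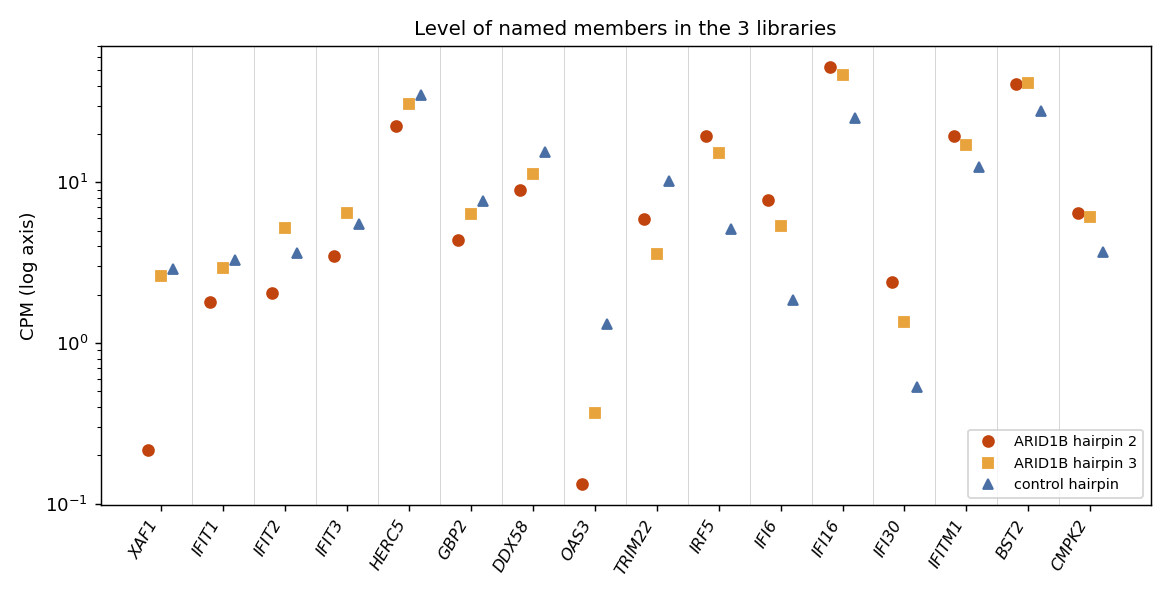
Level in CPM (log axis) of 16 members in each library, with hairpin 2 (circles), hairpin 3 (squares) and the control hairpin (triangles) from left to right within each gene. XAF1 stands at 0.216 CPM under hairpin 2, against 2.6 CPM under hairpin 3 and 2.9 CPM in the control, whereas both ARID1B hairpins lie above the control for IRF5, IFI6, IFI16, IFI30, IFITM1, BST2 and CMPK2.

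XAF1 and the IFIT genes set the 2 ARID1B hairpins apart. XAF1 (ENSG00000132530), an antagonist of the caspase inhibitor XIAP, had 13 counts under hairpin 2 and 162 under hairpin 3, against 180 in the control. Hairpin 3 and the control overlap within counting error, and hairpin 2 alone is low, 13.4-fold below the control (counting interval 7.65 to 25.7) and 12.0-fold below hairpin 3 (6.83 to 23.1). Its log2 ratio of hairpin 2 over hairpin 3 was -3.40, the lowest of all 14977 genes with a mean of at least 1 CPM. The pooled test did not call it (log2 -1.03 ± 0.596 SE, edgeR adjusted p = 0.366). Annotation places 38.3% of its exon length within an overlapping non-coding gene.

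The IFIT genes, which encode proteins that bind foreign RNA, differed between hairpins in the same direction. IFIT1 had 108 counts under hairpin 2 and 182 under hairpin 3, against 203 in the control. IFIT2 had 124 and 322 counts, against 225, and IFIT3 had 209 and 400, against 343. Hairpin 2 was the lowest library for all 3 of these genes, whereas hairpin 3 was below the control for IFIT1 and above it for IFIT2 and IFIT3. Set against hairpin 3, hairpin 2 was 1.63-fold lower for IFIT1 (counting interval 1.27 to 2.08), 2.5-fold lower for IFIT2 (2.03 to 3.11) and 1.85-fold lower for IFIT3 (1.56 to 2.19). In the order of all 14977 genes from the lowest ratio of hairpin 2 over hairpin 3, IFIT2 stood at place 10, IFIT3 at 49 and IFIT1 at 119. IFIT5, at 54 and 59 counts with 45 in the control, did not share this pattern.

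HERC5 and GBP2 ordered the libraries in the way IFIT1 did. HERC5, the ligase that attaches the ubiquitin-like protein ISG15 to targets, had 1339 counts under hairpin 2 and 1904 under hairpin 3, against 2162 in the control, and stood at place 409 in the same order. GBP2, a GTPase of the interferon gamma response, had 264 and 395 counts, against 476, at place 260. For both genes hairpin 2 was the lowest library and the control the highest. Neither passed the pooled test (edgeR log2 -0.40 ± 0.166 and -0.51 ± 0.222 SE).

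Between the hairpins, 2 of the 34 members, XAF1 and IFIT2, were at least 2-fold lower under hairpin 2 than under hairpin 3, where 0.18% of genes were, and 0 were at least 2-fold higher, where 0.541% were. Among genes at 1 to 10 CPM these shares were 0.479% lower and 1.38% higher. At 1.5-fold, 4 were lower, the same 2 with IFIT1 and IFIT3, where 1.28% of genes were. In the other direction 2 members, TRIM22 and IFI30, were 1.5-fold higher under hairpin 2, where 2.46% were. Over the 34 members, the median of this ratio was 0.09 on the log2 scale, so most members did not share the lower level of the IFIT genes. This contrast does not use the control library, and it has 1 library a side and no test.

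**Figure D3:**
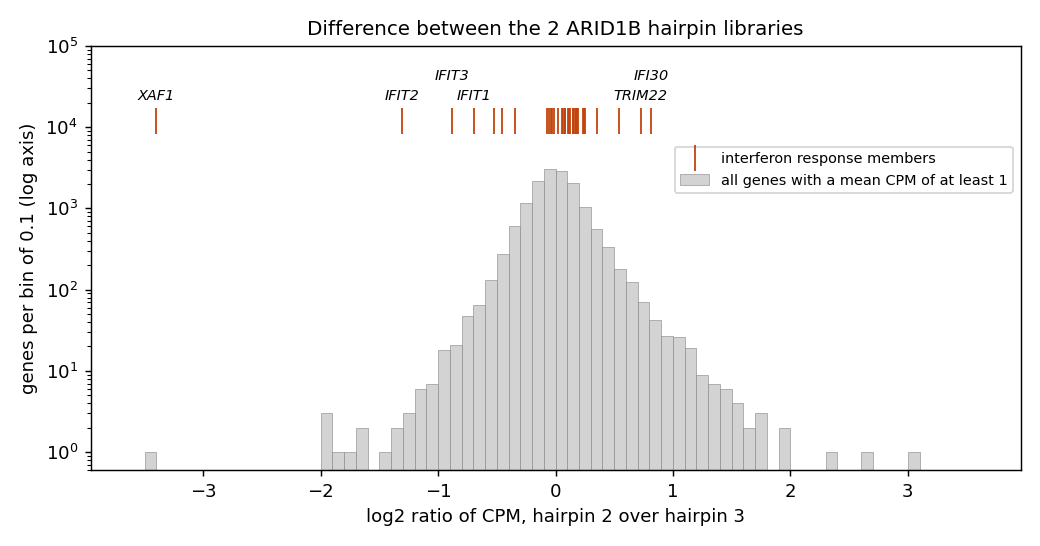
Number of genes (log axis) by log2 ratio of CPM of hairpin 2 over hairpin 3 in bins of 0.1, for all 14977 genes with a mean of at least 1 CPM, with the 34 members as ticks above. XAF1 at -3.40 is the lowest gene, and IFIT2, IFIT3 and IFIT1 form part of the left tail, while most members lie near 0.

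The OAS enzymes, which make oligoadenylates on binding double-stranded RNA, were scarce. OAS3 (ENSG00000111331) had 8 counts under hairpin 2 and 23 under hairpin 3, against 82 in the control, a level 9.93-fold lower under hairpin 2 (counting interval 4.81 to 23.8) and 3.58-fold lower under hairpin 3 (2.23 to 5.96). It fell by 2.38 on the log2 scale with a standard error of 0.456 (edgeR adjusted p = 0.00314), a call lost in DESeq2 (adjusted p = 0.118). The alternatives gave adjusted p-values between 0.000711 and 0.47. OAS3, at a mean of 0.608 CPM, was not tested in the setting that asked for at least 1 CPM. OAS1 had 17 and 11 counts, against 38 in the control, below it under both hairpins without passing (edgeR adjusted p = 0.0941). OAS2 had at most 5 counts in any library. Set against hairpin 3, hairpin 2 was 2.77-fold lower for OAS3 (counting interval 1.2 to 7.17), while the interval for OAS1 included equality.

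TRIM22, an antiviral ubiquitin ligase, lay furthest below the control under hairpin 3 among the 34 members with a mean of at least 1 CPM. It had 357 counts under hairpin 2 and 223 under hairpin 3, against 636 in the control, 1.73-fold lower under hairpin 2 (counting interval 1.51 to 1.97) and 2.86-fold lower under hairpin 3 (2.45 to 3.35). It fell by 1.11 on the log2 scale with a standard error of 0.237 (edgeR adjusted p = 0.00664), and missed the threshold with a mean of at least 1 CPM (0.0536; the alternatives span 0.00136 to 0.47). Here hairpin 3 was the lowest library, whereas hairpin 2 was the lowest for IFIT1, IFIT2 and IFIT3. USP18, which removes ISG15 from proteins and damps the interferon receptor, had 45 and 43 counts, against 85 in the control (edgeR log2 -0.93 ± 0.345 SE, adjusted p = 0.121).

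The genes that rose lay above the control under both hairpins, which the pooled test favours, since its spread comes from the difference between them. IFI6 (ENSG00000126709), a small membrane protein that delays cell death, had 468 counts under hairpin 2 and 332 under hairpin 3, against 114 in the control, 4.24 times the control under hairpin 2 (counting interval 3.45 to 5.25) and 2.9 times under hairpin 3 (2.34 to 3.62). Its pooled log2 change was 1.83 ± 0.278 (SE, edgeR adjusted p = 0.00044). IFI16, a sensor of DNA in myeloid cells, had 3142 and 2903 counts, against 1549 in the control, and a log2 change of 0.99 ± 0.143 (SE, edgeR adjusted p = 0.000295). IFI30, a thiol reductase of lysosomes that prepares antigens, had 144 and 84 counts, against 33, and a log2 change of 1.81 ± 0.433 (SE, edgeR adjusted p = 0.0145). The IFI30 call was lost in DESeq2 (adjusted p = 0.0618) and with a mean of at least 1 CPM (0.0645 in edgeR; the alternatives span 0.0028 to 0.47), and 40.2% of its exon length lies within another annotated gene with more counts. Of the 5 monocyte and macrophage markers, FCN1 rose as well, with 2326 and 1305 counts, against 644 in the control (edgeR adjusted p = 0.00126). CD68 rose too, with 1535 and 1543 counts, against 849 (edgeR adjusted p = 0.00135), subject to the overlap given above. CSF1R, CD14 and CD163 did not pass (edgeR adjusted p = 0.295, 0.266 and 0.0817).

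Genes for membrane proteins that restrict virus entry or release were higher by less. BST2, the tetherin that holds virus particles at the membrane, had 2454 and 2566 counts with the ARID1B hairpins, against 1716 in the control (edgeR log2 0.57 ± 0.137 SE, adjusted p = 0.0149). IFITM1 had 1167 and 1067 counts, against 772, and rose (0.55 ± 0.162 SE, edgeR adjusted p = 0.0434). That call was lost with upper quartile factors (0.059 in edgeR), robust empirical Bayes (0.0518), a mean of at least 1 CPM (0.09) and DESeq2 (0.135), and the alternatives span 0.0296 to 0.47. IFITM2 had 5064 and 4959 counts, against 3811, and IFITM3 had 117 and 112, against 87, neither past the threshold. These 3 are related neighbours on chromosome 11, and 32.5% of the exon length of IFITM1 overlaps IFITM2 in the annotation. Reads may thus be split between these genes. CMPK2, a mitochondrial nucleotide kinase beside RSAD2 on chromosome 2, had 387 and 379 counts, against 227, and rose by 0.77 ± 0.215 (SE, edgeR adjusted p = 0.034). It was lost in DESeq2 (0.153) and with a mean of at least 1 CPM (0.068 in edgeR; the alternatives span 0.0225 to 0.47).

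None of the remaining members passed. ISG15 had 517 counts under each ARID1B hairpin, against 388 in the control (edgeR log2 0.43 ± 0.189 SE, adjusted p = 0.195). SAMHD1, which breaks down nucleotides, had 3288 and 2855 counts, against 2435, and MX2 had 4782 and 5164, against 4491. Its paralogue MX1, a standard marker of interferon exposure, had 29 and 41 counts, against 38. RSAD2 (viperin) had 19 and 37 counts, against 32, and OASL had 27 and 48, against 40. The counting intervals of hairpin 2 over control include equality for both. Set against hairpin 3, hairpin 2 was 1.88-fold lower for RSAD2 (counting interval 1.05 to 3.46) and 1.71-fold lower for OASL (1.05 to 2.86). For MX1 that interval included equality. RSAD2, OASL and MX1 lay under a mean of 1 CPM, the level set for the comparison between hairpins. PARP9, DTX3L and PARP14, an ADP-ribosylation group, ranged from -0.35 to 0.21 on the log2 scale, and IFI35 was 1.34 and 1.23 times the control. IFI44, IFI44L, EPSTI1 and GBP1, which interferon induces strongly in many cells, had 4 counts or fewer in any library, and ISG20 and IFI27 had 26 or fewer. Per kilobase of annotated exon, the control library held most of IFITM2 (39.8 CPM per kilobase), ADAR (28.3) and BST2 (24.7) among the members, while MX1 stood at 0.071, OAS3 at 0.16 and XAF1 at 0.438 CPM per kilobase.

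The promoters of 7 members are shown to let the interferon element be seen beside the values. They are XAF1, IFIT1, IFIT3 and HERC5, which were lower under hairpin 2 without passing the pooled test, and OAS3, IFI6 and BST2, which passed it. IRF5, IFI16, IFI30, CMPK2 and DDX58 also passed and have matched promoters, none of which holds the element, and are not shown, nor is IFITM1, which passed and holds it. Each sequence runs from 250 bases before to 50 after the annotated start, in GRCh38.p14 from RefSeq. Capitals mark GAAA, any 2 bases and GAAA, read on either strand, the core of the interferon-stimulated response element. Where the table gives several starts for a gene, the first listed is shown.
XAF1 (chr17:6755796-6756095, plus strand): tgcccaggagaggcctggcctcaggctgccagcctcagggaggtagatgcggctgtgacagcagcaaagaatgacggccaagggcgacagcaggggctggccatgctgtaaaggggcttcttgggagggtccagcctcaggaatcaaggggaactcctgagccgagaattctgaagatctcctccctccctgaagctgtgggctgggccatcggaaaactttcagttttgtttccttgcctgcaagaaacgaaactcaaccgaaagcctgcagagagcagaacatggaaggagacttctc
IFIT1 (chr10:89392373-89392672, plus strand): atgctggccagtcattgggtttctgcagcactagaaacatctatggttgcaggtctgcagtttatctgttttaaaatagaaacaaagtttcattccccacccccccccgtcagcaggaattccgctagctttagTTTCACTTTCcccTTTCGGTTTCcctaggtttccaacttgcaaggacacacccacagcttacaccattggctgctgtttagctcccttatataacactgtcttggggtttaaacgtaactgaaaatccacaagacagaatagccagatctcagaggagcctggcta
IFIT3 (chr10:89327747-89328046, plus strand): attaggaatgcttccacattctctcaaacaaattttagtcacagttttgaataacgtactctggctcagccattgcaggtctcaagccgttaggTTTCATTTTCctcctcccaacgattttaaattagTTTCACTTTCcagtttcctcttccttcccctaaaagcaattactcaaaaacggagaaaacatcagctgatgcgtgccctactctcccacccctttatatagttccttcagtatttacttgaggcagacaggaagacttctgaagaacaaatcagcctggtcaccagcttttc
HERC5 (chr4:88456869-88457168, plus strand): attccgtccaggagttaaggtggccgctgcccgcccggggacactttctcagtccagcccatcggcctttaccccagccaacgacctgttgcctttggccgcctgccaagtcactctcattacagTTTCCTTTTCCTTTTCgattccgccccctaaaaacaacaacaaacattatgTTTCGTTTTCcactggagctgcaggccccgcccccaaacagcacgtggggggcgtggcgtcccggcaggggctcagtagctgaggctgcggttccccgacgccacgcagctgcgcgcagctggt
OAS3 (chr12:112938224-112938523, plus strand): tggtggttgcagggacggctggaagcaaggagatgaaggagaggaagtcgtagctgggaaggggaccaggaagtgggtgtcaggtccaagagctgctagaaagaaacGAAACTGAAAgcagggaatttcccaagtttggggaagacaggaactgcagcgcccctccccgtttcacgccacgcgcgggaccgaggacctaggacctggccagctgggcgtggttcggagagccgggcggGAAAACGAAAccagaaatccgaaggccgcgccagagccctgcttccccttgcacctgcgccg
IFI6 (chr1:27672143-27672442, minus strand): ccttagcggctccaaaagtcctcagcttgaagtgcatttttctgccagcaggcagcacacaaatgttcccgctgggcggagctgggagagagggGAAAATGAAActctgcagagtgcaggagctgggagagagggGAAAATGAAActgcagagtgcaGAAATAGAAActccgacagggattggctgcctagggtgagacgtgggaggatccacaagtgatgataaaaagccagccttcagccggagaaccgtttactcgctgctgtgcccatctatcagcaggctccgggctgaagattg
BST2 (chr19:17405581-17405880, minus strand): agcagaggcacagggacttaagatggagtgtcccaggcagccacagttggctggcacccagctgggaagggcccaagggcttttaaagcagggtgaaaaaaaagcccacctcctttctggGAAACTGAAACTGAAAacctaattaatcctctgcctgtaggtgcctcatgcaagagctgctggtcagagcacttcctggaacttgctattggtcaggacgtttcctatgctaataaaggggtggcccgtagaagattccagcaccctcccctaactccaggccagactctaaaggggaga

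The element lay 116 and 103 bases before the start of IFIT1, 156 and 122 before that of IFIT3, and 125, 119 and 74 before that of HERC5, where the first 2 copies overlap. It lay 143 and 12 bases before the start of OAS3, which fell, and 156, 115 and 93 before that of IFI6 and 130 and 124 (overlapping) before that of BST2, which rose. No match lay in the window of XAF1. The element was thus present on both sides of the response. RefSeq promoters were matched for 36 of the 48 members, and 23 of these held these letters at 1 or more starts, against 4.38% of the 27305 genes in that table. Of the 7 members that rose, 3 held it (IFITM1, BST2 and IFI6), and of the 2 matched members that fell, 1 did (OAS3). Among members with a mean of at least 1 CPM, the 13 with the element had a median log2 ratio to control of 0.02 under hairpin 2 and -0.03 under hairpin 3. The 12 without it had medians of 0.45 and 0.26. IFIT2, GBP2, TRIM22, DHX58, IRF2, IRF3, IRF7, IFITM2 and MX2 had no matched promoter and are in neither group. A second element, TTC, any 3 bases and GAA, lay in the promoters of 9 of the 36 members, against 9.38% of genes. Its medians stood the other way, at 0.56 and 0.46 for the 5 members at that level with it and 0.05 and -0.02 for the 20 without it. A match of letters is not evidence that a factor binds there.

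The rest of the pathway was measured with 118 genes in 6 lists. Of 88 that could be tested, 10 rose and 2 fell (edgeR, against 5.49% and 3.21% of all genes). Among receptors and kinases, 2 of 9 rose. IFNGR1, a chain of the interferon gamma receptor, had 2783 counts under hairpin 2 and 3238 under hairpin 3, against 2018 in the control (0.60 ± 0.140 SE, edgeR adjusted p = 0.0126). IL10RB, a chain of the type III interferon receptor, had 2600 and 2354 counts, against 1537 (0.71 ± 0.145 SE, edgeR adjusted p = 0.00493), and its exons overlap another annotated gene over 38.1% of their length. Of 10 inhibitors of the pathway, 2 rose. SOCS1, an interferon-induced inhibitor of JAK kinases, had 99 and 74 counts, against 29 in the control (1.59 ± 0.414 SE, edgeR adjusted p = 0.0237), and the phosphatase PTPN6 had 13428 and 11946, against 7610 (0.76 ± 0.143 SE, edgeR adjusted p = 0.00278).

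Of 45 other interferon-induced genes tested, 6 rose and 2 fell. TNFSF10, the death ligand TRAIL, had 1340 and 1374 counts with the ARID1B hairpins, against 509 in the control, 2.72 and 2.69 times the control level (edgeR log2 1.44 ± 0.163 SE, adjusted p = 3.35e-05). LGALS3BP, a secreted galectin-binding protein, fell, with 495 and 593 counts, against 1073 (edgeR log2 -0.96 ± 0.166 SE, adjusted p = 0.00135). UBE2L6, the conjugating enzyme for ISG15, had 374 and 509 counts, against 240 (edgeR adjusted p = 0.0207), and WARS, a tRNA synthetase induced by interferon gamma, had 19260 and 17376, against 11073 (edgeR adjusted p = 0.00347). Both rose. None of the 44 genes of this list with a mean of at least 1 CPM was 1.5-fold apart between the hairpins. Of all genes at that level, 2.46% were 1.5-fold higher under hairpin 2 and 1.28% were lower. A count of 0 in 44 is near these shares. Of the 14 genes tested in the sensing pathway (TLR9, TBK1, TRIM25 and others), 0 passed in edgeR, and the TMEM173 (STING) level was 5342 and 4697 counts, against 5878. Likewise 0 of the 10 genes of the RNA interference machinery, which processes hairpins, passed in edgeR. Over all genes tested 8.7% passed, so a count of 0 in lists this short says little about these genes. DICER1 had 4512 and 4415 counts, against 3997, and AGO2 had 998 and 969, against 1095.

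**Figure D4:**
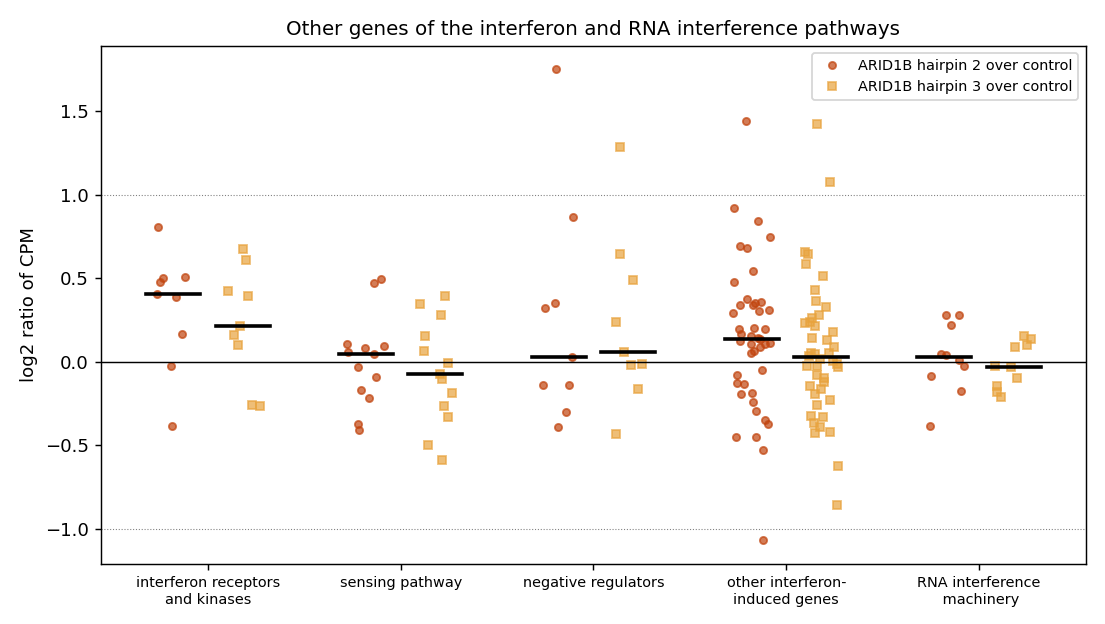
Log2 ratio of CPM to the control library (y axis, prior count of 2) for genes with a mean of at least 1 CPM in 5 pathway lists, under hairpin 2 (circles, left) and hairpin 3 (squares, right); black lines are medians and dotted lines mark 2-fold. All 10 genes of the RNA interference machinery lie within 2-fold of the control, as do 14173 of all 14977 genes under hairpin 2 and 14464 under hairpin 3. SOCS1 and TNFSF10 lie above the control under both hairpins.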

How the data were processed

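PolyA RNA of 3 NB4 samples was made into TruSeq libraries, per the labels. The authors deposited whole-number read counts per Ensembl gene, not normalized; STAR, Cufflinks, featureCounts and hg19 are named in the submitters' processing notes, with versions, annotation and strand use not given in the sources used here. GENCODE 29 named 52338 of 57773 IDs and gave exon lengths and overlaps; its build differs from that of the counts, so the only coordinates printed are those of RefSeq promoters. CGAS was matched through RefSeq's older names. IKBKE, a gene of the sensing pathway list, could not be matched to a row and was left out.

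The main test used edgeR 4.0.16 under R 4.3.3 (filterByExpr at a minimum count of 10, which left 20382 genes, TMM factors, glmQLFit with legacy = FALSE, two-sided quasi-likelihood test). The standard errors (SE) of pooled log2 changes were derived from this test, as the absolute change divided by the square root of its F statistic. DESeq2 1.42.0 was an alternative. Single libraries were compared without a test, as log2 ratios of CPM after adding a prior count of 2; 95% intervals of ratios are exact, conditional on the counts of both libraries, and cover counting error only, as do floors of 3 counts. Nothing in the labels ties the libraries to separate cultures or infections, so the p-values reflect only how far these samples differ from one another, possibly for technical reasons. The edgeR script was tested on simulated data. Members and lists were chosen with earlier results of these data known. Full values are given for members past the test, members 2-fold from control or between hairpins at a mean of at least 1 CPM, and the upstream sensors and factors; HERC5, GBP2, the remaining members with values and the uncalled genes of other lists with values were chosen after their values were seen.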

Additional observations from a re-analysis of the deposited data

Results flagged for a closer look

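IFIT2 lay on opposite sides of the control under the 2 ARID1B hairpins. Its log2 ratio to control was -0.80 under hairpin 2 (124 counts) and 0.51 under hairpin 3 (322 counts), with 225 counts in the control, and both counting intervals excluded equality. The difference between the hairpins was not tested, since each has 1 library.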

How the results depend on the processing

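Among members called by the pooled test, the 7 higher became 4 with a mean of at least 1 CPM, 4 in DESeq2 and 0 without a filter, and the 3 lower became 0, 1 and 0 under the same settings. Of the 3 lower, OAS3 has a mean of 0.608 CPM and was not tested under the first of these settings. The other alternatives (RLE and upper quartile factors, robust empirical Bayes, the legacy fit) left these counts within 1.5 times. At 1.5-fold, members past the fold were 7 higher and 8 lower under hairpin 2, 5 and 2 under hairpin 3, and 2 and 4 between hairpins. At a mean of at least 5 CPM they were 2 higher and 0 lower under hairpin 2, 1 higher under hairpin 3, and 0 lower between hairpins. With no minimum level, 4 were lower under hairpin 2, 3 under hairpin 3 and 4 between hairpins. Scaling factors and prior counts changed none of these counts. Genes of the other lists past the fold were 9 higher under hairpin 2 and 8 higher and 3 lower under hairpin 3 at 1.5-fold, 1 higher under hairpin 2 at 5 CPM, and 4 higher and 2 lower under hairpin 2 and 1 lower under hairpin 3 with no minimum. The members' median log2 ratio under hairpin 2 was 0.106 with RLE factors, 0.032 with upper quartile factors, 0.057 at 5 CPM and 0.015 with no minimum. Under hairpin 3 it was 0.067 with upper quartile factors, 0.087 with library size alone, 0.027 at 5 CPM and 0.174 with no minimum. The sign of small changes turned for ADAR (-0.012) and IRF7 (-0.001) with upper quartile factors and for IFIT2 with RLE factors (0.013) and in DESeq2 (0.008). The cause of these shifts was not tested. Leaving out either hairpin leaves no residual degrees of freedom, so the values of each hairpin in the report stand in for it; XAF1 is -3.56 on hairpin 2 alone and -0.16 on hairpin 3 alone. No paired analysis was possible because the groups share no replicate number and the control is 1 library. Counts under about 50, as for OAS1, OAS3 under the hairpins, XAF1 under hairpin 2 and IFI30 in the control, limit the precision of those ratios most.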
